A study of Mus musculus with 8 samples.

Results

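The myogenic transcription factors described here are Myod1, Myog, Myf5, Myf6, Pax7, Mef2a, Mef2c, Mef2d and Six4. These 9 genes were taken by symbol from the 24054 genes of the expression table, and each symbol had a row. They were measured by RNA-seq in the soleus (SOL), a slow postural muscle of the hindlimb, of 8 mice. The 4 MI4KO mice (Irf4 flox/flox;Cre+) were made to lose the transcription factor IRF4 in skeletal muscle through Cre recombinase expressed from the Myl1 locus, a gene of muscle fibers. The 4 control mice were flox littermates without Cre. All 8 were male C57BL/6 mice and carried the label high fat diet, while the paper describes chow for other experiments with MI4KO mice and names no diet for these libraries, so the diet is uncertain. Their age is not given in the labels. This Cre acts in fibers, and the satellite, endothelial, Schwann, fat and connective tissue cells of the same muscle are not its target.

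Myogenic factors act in sequence as muscle forms. Pax7 marks satellite cells, the stem cells that lie beside each fiber. Myf5 and Myod1 are the basic helix-loop-helix (bHLH) factors that commit a cell to the muscle lineage, Myog (myogenin) drives its differentiation, and Myf6 (MRF4) is the member of that family which adult fibers keep expressing. The MEF2 proteins are MADS-box factors that bind AT-rich sites in muscle genes together with the bHLH factors, and in adult fibers they respond to calcium signals and take part in the slow fiber program. Six4 is a homeodomain factor that binds the MEF3 motif, one site of which lies in the Myog promoter.

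The promoters of Myog and Mef2a are shown as examples of windows that hold a motif of the other factors of the set. Both windows run from 150 bases before to 10 bases after the RefSeq transcript start and are read on the gene's own strand of GRCm38 (mm10), chr1:134289854-134290013 on the plus strand for Myog and chr7:67372849-67373008 on the minus strand for Mef2a. Capitals mark the motifs found.
Myog: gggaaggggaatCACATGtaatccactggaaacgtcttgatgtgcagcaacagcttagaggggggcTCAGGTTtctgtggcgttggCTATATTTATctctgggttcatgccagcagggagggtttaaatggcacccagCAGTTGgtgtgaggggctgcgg
Mef2a: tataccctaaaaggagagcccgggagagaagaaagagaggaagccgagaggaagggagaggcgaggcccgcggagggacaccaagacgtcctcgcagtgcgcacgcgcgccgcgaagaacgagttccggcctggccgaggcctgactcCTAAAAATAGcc
In the Myog window, the first and last capitals are E-boxes (CANNTG), the site of the bHLH factors, at -138 to -133 and -12 to -7. Between them lie the MEF3 motif (TCAGGTT) at -84 to -78 and a run that differs by 1 base from the MEF2 consensus at -64 to -55. The Mef2a window holds a full match to the MEF2 consensus at -2 to 8, across the start itself. Positions count from 1 at the first transcribed base, with no position 0, and both strands were searched.

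Of 32851 mouse promoter windows of 300 bases in RefSeq, 72.3% held an E-box, 4.07% the MEF3 motif, 3.19% a full MEF2 match and 26.9% a MEF2 match with at most 1 mismatch. RefSeq windows were at hand for 7 of the 9 genes, all but Myod1 and Myf6. Some windows of other members, but not all, held such motifs as well. A Mef2c window held 2 E-boxes, the MEF3 motif and a MEF2 match with 1 mismatch. Another Mef2c window held MEF2 matches of that kind and a further one an E-box, and a Six4 window held the MEF3 motif. The windows of Myf5, Pax7 and Mef2d held none of these motifs, and E-boxes were found in windows of Myog and Mef2c only. The interferon-stimulated response element (ISRE), a motif of the IRF family, was not found in the members' windows, and 3.44% of all windows held it. A motif match is a description of the letters and not of binding.

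The libraries held 13417512 to 16384565 reads each, recovered as whole numbers from the deposited values, and 3 reads corresponded to 0.181 to 0.225 normalized CPM. The targeted gene was low in every library. Irf4 read 0.686, 1.46, 1.58 and 1.68 normalized CPM in flox mice 1 to 4 and 0.725, 0.840, 0.266 and 1.03 in MI4KO mice 1 to 4, from 4 to 23 reads per mouse, and the groups overlapped through flox mouse 1. Its log2 fold change was -0.45 ± 0.20 (SE; limma p = 0.0402, adjusted p = 1.0; exact permutation p = 0.114) on the log2(value + 1) scale, which understates the change at this level. The count models gave -0.86 (edgeR) and -0.87 (DESeq2), both with an unadjusted p above 0.05. Its limma p also rose above 0.05 with both other scalings, with the range of mouse numbers as covariate, without MI4KO mouse 1 and without MI4KO mouse 3 (-0.31). It passed 1.5-fold with an unadjusted limma p under 0.05 with a pseudocount of 0.5 (-0.61) and without flox mouse 1 (-0.60). Without flox mouse 2, flox mouse 3, flox mouse 4 or MI4KO mouse 4 it fell under the expression filter and was not tested. Flox mouse 1 also carried liver transcripts, 126.5 summed over 10 liver genes against 0.133 to 0.763 in the other mice. MI4KO mouse 3 had a neutrophil marker sum of 6.38 against 1.43 to 2.36. The heart myosin Myh6 set flox mouse 3 and MI4KO mice 3 and 4 apart from the other 5 mice. Summed over 5 cardiac genes, Myh6 among them, the values were 1452 in flox mouse 3 and 1089 in MI4KO mouse 3. The lowest sum was 13.7, in flox mouse 2. Of these genes, Nppb and Nkx2-5 had 0 reads in all 8 mice, while Nppa and Tbx5 had reads but fell under the expression filter. The part of these differences in the results below was not tested, apart from the values given without flox mouse 1 and MI4KO mouse 3.

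All 9 factors were detected in SOL of all 8 mice, and no member separated MI4KO from flox mice. Group means ran from 1.61 normalized CPM for Myf5 in flox mice to 1089 for Mef2c in MI4KO mice. Adult-fiber factors, Myf6 and the MEF2 genes, were the abundant ones, and the factors of satellite cells and early myogenesis were the scarce ones.

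**Figure D1:**
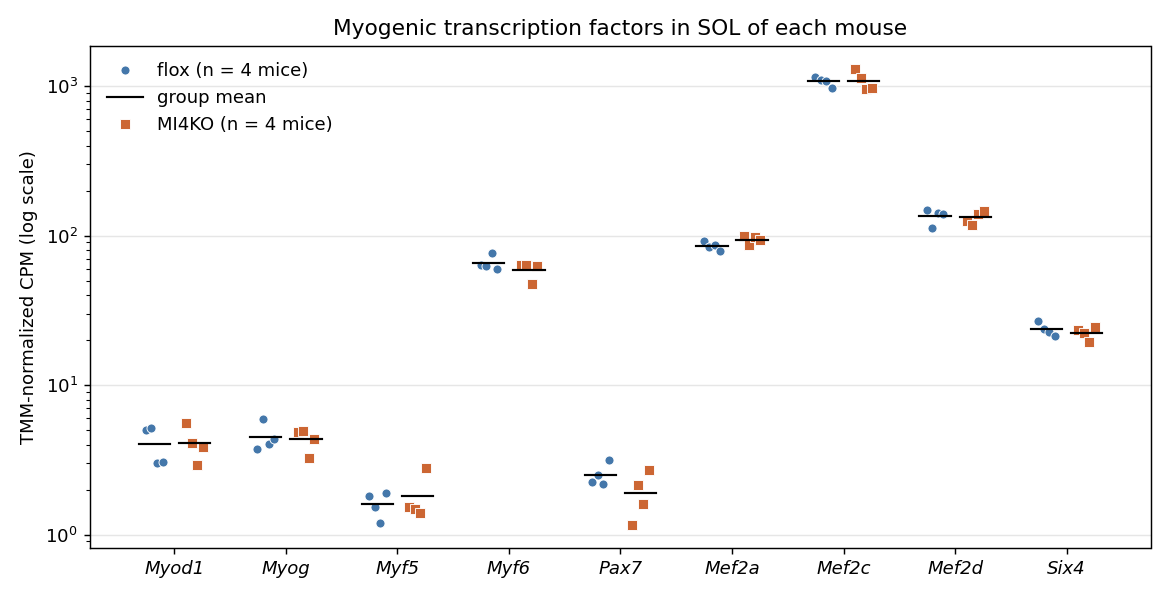
Normalized CPM on a log axis for each of the 9 factors, with 1 point per mouse (circles flox, squares MI4KO, 4 mice each, drawn from mouse 1 at the left to mouse 4 at the right) and a bar at each group mean. The 2 groups overlap for every gene, and Mef2c lies between 955 and 1307 while Myf5 lies between 1.2005 and 2.78.

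Levels were compared between genes per kilobase of exon, since a longer transcript yields more reads. Mef2c stood first with 148.1 ± 16.4 normalized CPM per kb (SD, n = 8), about 3-fold above Myf6 at 49.3 ± 6.18. Mef2d followed at 22.9 ± 2.33 and Mef2a at 15.8 ± 1.23. The ranges of these 4 genes over the 8 mice did not touch. Below them came Myog at 2.96 ± 0.541, Myod1 at 2.19 ± 0.567 and Six4 at 2.12 ± 0.208 per kb. Neighbours among these 3 overlapped in range, so their order is not settled, and with the longest transcript as length Six4 (3.38 per kb) came above Myog. Myf5 (0.817 ± 0.234 per kb) and Pax7 (0.377 ± 0.106 per kb) were the lowest, and their ranges did not overlap each other or Six4.

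**Figure D2:**
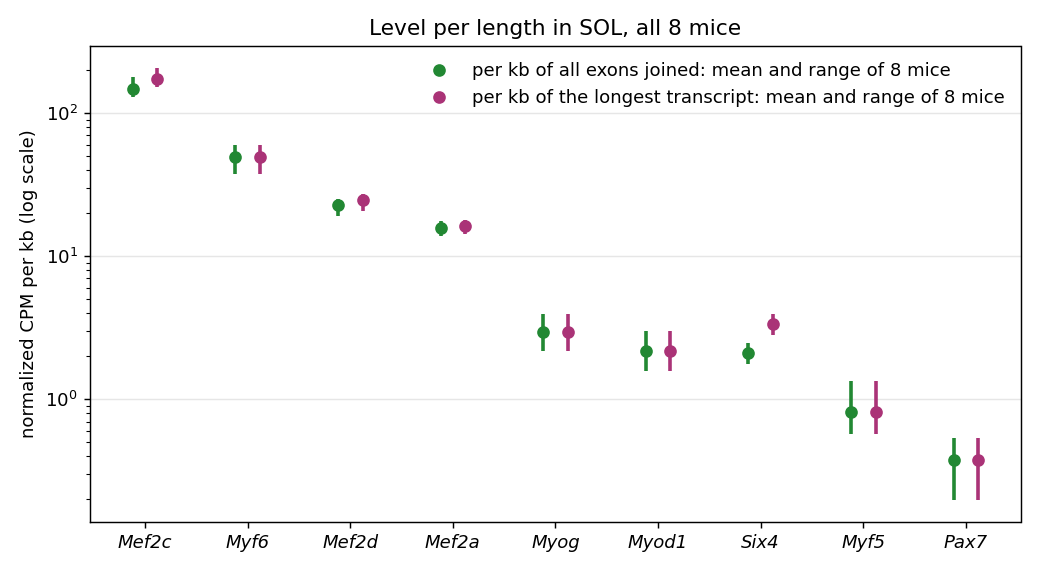
Normalized CPM per kb on a log axis for the 9 factors, ordered by level per kb of all exons joined, with the mean (point) and range (line) of the 8 mice for 2 ways of measuring length. Mef2c, Myf6, Mef2d and Mef2a keep their order under both lengths, while Six4 moves from 2.12 to 3.38 per kb and changes places with Myog and Myod1.

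Within the bHLH family, Myf6 made up 89.2% ± 1.62 (SD, n = 8) of the summed level per kb, with a range of 86.9% to 92.5% across mice. Myog made up 5.38% ± 0.864, Myod1 3.97% ± 0.922 and Myf5 1.497% ± 0.448. The Myf6 share was 89.6% ± 2.28 in flox mice and 88.7% ± 0.657 in MI4KO mice, a difference within the spread of the flox mice. Myog stood 1.40 ± 0.281 times as high as Myod1 per kb, at 1.46 in flox and 1.34 in MI4KO mice. In the MEF2 family, Mef2c made up 79.2% ± 2.38, Mef2d 12.3% ± 1.81 and Mef2a 8.47% ± 0.763. The fourth member of that family, Mef2b, had 27 reads over all 8 mice, and Pax3, the paralog of Pax7 that acts in the embryo, had 1.

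The comparison of MI4KO with flox SOL asks whether the loss of IRF4 in fibers goes with another level of the myogenic factors. Of 11865 genes tested, 26 (0.219%) differed by at least 1.5-fold with an unadjusted limma p under 0.05, 19 lower (0.16%) and 7 higher (0.059%) in MI4KO mice. None of the 9 members was among them. At an unadjusted p under 0.05 alone, 399 genes (3.36%) and 0 members were counted by limma, while edgeR counted 363 genes (3.06%) and DESeq2 248 (2.09%), each with 1 member, Mef2a. After adjustment over all genes, limma called 0 genes, and the smallest adjusted p of a member was 1.0. Groups that did not overlap were found for 246 genes (2.07%), of which 202 (1.7%) were lower and 44 (0.371%) higher in MI4KO mice, and for 0 members.

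In MI4KO mice 5 members had a lower and 4 a higher estimate, beside 56.2% of all genes with a lower one. The median log2 fold change of the members was -0.02 and that of all genes -0.01, and the medians of the absolute values were 0.07 for both. For 6 of the 9 the difference was smaller than its own standard error. The 95% confidence interval lay inside 1.5-fold of value + 1 in both directions for 8 members, all but Pax7. This scale understates changes of Pax7, Myf5, Myod1 and Myog. For Myf5, Myod1 and Myog, an interval inside these limits does not by itself exclude a 1.5-fold change of the value. With 4 mice a group, the exact permutation test over 70 arrangements can reach 0.0286 at the smallest, and no member passed 0.05 in it.

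**Figure D3:**
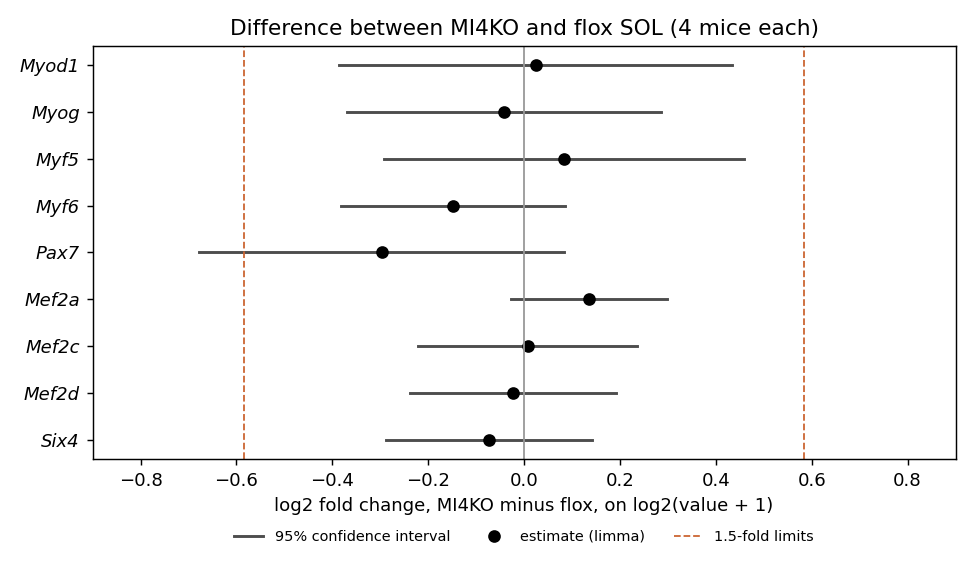
Log2 fold change of MI4KO against flox SOL on the log2(value + 1) scale for the 9 factors. Points are limma estimates from 4 mice a group, and lines are 95% confidence intervals. Dashed lines mark 1.5-fold of value + 1 in each direction. All intervals include 0, and only that of Pax7, from -0.68 to 0.08, crosses a dashed line.

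Pax7 (chr4:139737062-139833528), the satellite cell factor, had the lowest estimate of the 9. It read 2.24, 2.50, 2.18 and 3.13 normalized CPM in flox mice 1 to 4. In MI4KO mice 1 to 4 it read 1.16, 2.13, 1.595 and 2.72. Of the 4 MI4KO mice, 3 lay below the lowest flox mouse, and MI4KO mouse 4 lay above 3 of the flox mice. Its log2 fold change was -0.30 ± 0.18 (SE), with a 95% confidence interval of -0.68 to 0.08 (limma p = 0.115, exact permutation p = 0.200). These values rested on 16 to 45 reads per mouse, which gives a counting error of about 17.5% for 1 library. The spread was 17.4% (CV) among flox and 35.5% among MI4KO mice. The estimate moved to -0.43 when MI4KO mouse 4 was left out (limma, adjusted p = 0.903) and to -0.17 when MI4KO mouse 1 was. In whole muscle, fewer cells of a type and less RNA per cell cannot be told apart.

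Other genes of satellite cells gave no call beside it. Of 13 markers, which include the cadherin Cdh15 and the integrin Itga7, 12 were tested, 9 with lower and 3 with higher estimates (median log2 fold change -0.13), and 0 reached an unadjusted p under 0.05 by limma. The calcitonin receptor Calcr, a marker of quiescent satellite cells, was under the filter with 57 reads in all. Summed over the 13, flox mice gave 404.8 to 426.2 and the MI4KO group 339.3 to 469.6. Which cells of the muscle gave this RNA was not tested, so the sum is not a measure of satellite cells alone. The sum was lowest in MI4KO mouse 1, the mouse with the lowest Pax7. It was highest in MI4KO mouse 3, where Pax7 read 1.595, lower than in all mice but MI4KO mouse 1. That highest sum includes an Sdc4 value of 119.2, against 36.3 to 51.8 in the other mice. Endothelial (226.0), fibroblast (241.4), mural (161.3) and fat cell (10.5) marker sums were also at their lowest in MI4KO mouse 1. Their part in the Pax7 value was not tested.

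Cd34, which satellite cells share with endothelium, had the lowest estimate of the list, with values of 65.1, 69.8, 65.2 and 66.2 in flox and 53.4, 66.3, 44.3 and 69.0 in MI4KO mice (log2 fold change -0.21 ± 0.12, limma p = 0.103, exact permutation p = 0.343). The highest was the syndecan Sdc4 at 0.33 ± 0.27 (limma p = 0.253, exact permutation p = 0.6). It rested on 1 mouse, since MI4KO mouse 3 read 119.2 and the other 3 MI4KO mice 39.5 to 47.1, and without that mouse the estimate was -0.04. Endothelial markers had lower estimates in 5 of 5, beside 56.2% of all genes. An unadjusted limma p under 0.05 with lower values was found for 2.95% of all genes. It was found here for the receptor Kdr (-0.37 ± 0.14, p = 0.0239, exact permutation p = 0.143) and the cadherin Cdh5 (-0.29 ± 0.12, p = 0.0281, exact permutation p = 0.114), both named after their values were seen. Neither reached 1.5-fold.

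Myf5 (chr10:107482908-107486134) and Myf6 lie 6718 bases apart on the minus strand of chromosome 10. Myf5, a commitment factor that satellite cells also express, read 1.81, 1.53, 1.2005 and 1.89 in flox mice and 1.52, 1.49, 1.40 and 2.78 in MI4KO mice. The 3 first MI4KO mice lay within the flox range, and MI4KO mouse 4 was the highest of the 8. The log2 fold change was 0.08 ± 0.17, with an interval of -0.29 to 0.46 (limma p = 0.641, exact permutation p = 0.800). Without MI4KO mouse 4 it was -0.07. The gene had 16 to 46 reads per mouse.

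Myod1 (chr7:46376474-46379099), the other commitment factor, varied between mice more than it did between groups. It read 4.99, 5.13, 3.001 and 3.06 in flox mice and 5.59, 4.07, 2.93 and 3.87 in MI4KO mice. Flox mice 1 and 2 stood apart from flox mice 3 and 4, and the MI4KO mice covered the same span. The CV was 29.0% in flox and 26.8% in MI4KO mice against a counting error of 12.9%, from 40 to 80 reads. Between groups it differed by a log2 fold change of 0.02 ± 0.19, with an interval of -0.39 to 0.43 (limma p = 0.90, exact permutation p = 0.914).

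Myog (chr1:134289989-134292548), the differentiation factor, read 3.74, 5.90, 4.05 and 4.37 in flox mice and 4.86, 4.91, 3.26 and 4.35 in MI4KO mice. Both the highest flox mouse (2) and the lowest MI4KO mouse (3) lay away from the rest, and the other 6 values ran from 3.74 to 4.91. Its log2 fold change was -0.04 ± 0.15, with an interval of -0.37 to 0.29 (limma p = 0.785, exact permutation p = 0.771). The sign turned without flox mouse 2 (0.07) and without MI4KO mouse 3 (0.06).

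Myf6 (chr10:107492853-107494737), the factor of adult fibers, read 63.9, 62.3, 76.0 and 59.7 in flox mice and 64.0, 63.2, 47.3 and 62.2 in MI4KO mice. Of the 8 mice, 6 lay between 59.7 and 64.0. Flox mouse 3 was above them and MI4KO mouse 3 below, and the estimate drew on both, at -0.046 without MI4KO mouse 3 and -0.075 without flox mouse 3. The log2 fold change was -0.15 ± 0.11, with an interval of -0.38 to 0.09 (limma p = 0.193, exact permutation p = 0.429). At 711 to 1029 reads the counting error was 3.30%, below the CV of 11.1% in flox and 13.5% in MI4KO mice.

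The bHLH factors bind DNA as dimers with E proteins and are held back by the Id proteins, which bind E proteins but not DNA. Of 19 such partners and opponents, 14 were tested, 12 with lower and 2 with higher estimates (median log2 fold change -0.16). Among all genes tested, 56.2% had a lower estimate. None of the 14 had an unadjusted limma p under 0.05. The E proteins Tcf3 and Tcf12, named for their role, had estimates of -0.08 ± 0.08 and 0.03 ± 0.08. Id1 had the lowest estimate, with 26.3, 36.6, 37.7 and 27.9 in flox and 11.3, 21.9, 34.8 and 33.5 in MI4KO mice (log2 fold change -0.43 ± 0.27, limma p = 0.141, exact permutation p = 0.343). Single mice moved this estimate, to -0.10 without MI4KO mouse 1 and to -0.62 without MI4KO mouse 3, where it passed both limits, as it did without flox mouse 1 and MI4KO mouse 3 (-0.70). MI4KO mice 1 and 2 lay below all flox mice and the other 2 within their range. Msc (musculin), a bHLH repressor, had the highest estimate at 0.07 ± 0.19.

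Mef2a (chr7:67231163-67372858) came nearest to a difference. It read 92.6, 83.9, 85.9 and 79.3 in flox mice 1 to 4. In MI4KO mice 1 to 4 it read 99.7, 86.0, 97.3 and 92.9. Of the 4 MI4KO mice, 3 lay above the highest flox mouse, and MI4KO mouse 2 lay above 3 of the 4 flox mice. The group means were 85.4 ± 5.50 and 94.0 ± 6.04 (SD, n = 4 each). The log2 fold change was 0.14 ± 0.07, with an interval of -0.03 to 0.30 (limma p = 0.0932, adjusted p = 1.0; exact permutation p = 0.0571). Other scalings and both count models gave 0.15 to 0.18 with unadjusted p from 0.0260 to 0.0478. The median log2 fold change of all genes also moved up in these settings. It went from -0.015 to 0.0044 with median-of-ratios scaling, 0.026 with library size scaling, 0.0024 in edgeR and 0.0048 in DESeq2. None of these settings gave Mef2a an adjusted p under 0.05 or a 1.5-fold difference. By gene bounds, Mef2a overlaps Lysmd4 on the other strand and Gm44667 and Gm44668 on its own, and exons were not compared. The paper names a stranded library kit, and the strand setting of the counting is not given in the sources used here.

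Mef2c (chr13:83504034-83667080) was the most abundant of the 9. It read 1154, 1095, 1086 and 969 in flox mice and 1307, 1128, 955 and 966 in MI4KO mice. The MI4KO mice held both the highest and the lowest value, and their CV was 15.2% against 7.19% in flox mice and a counting error of 0.791%. Group against group, it gave a log2 fold change of 0.01 ± 0.11, with an interval of -0.22 to 0.24 (limma p = 0.943, exact permutation p = 0.971).

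Mef2d (chr3:88142372-88172086) read 147.9, 111.8, 141.0 and 138.6 in flox mice and 125.6, 117.4, 139.9 and 146.9 in MI4KO mice. The flox range enclosed all MI4KO mice. Its log2 fold change was -0.02 ± 0.10, with an interval of -0.24 to 0.19 (limma p = 0.818, exact permutation p = 0.857). An annotated antisense gene, 1700113A16Rik, overlaps its end.

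MEF2 proteins are held in check or activated by a set of deacetylases, kinases and phosphatases. Of 22 such regulators, 20 were tested, 13 with lower and 7 with higher estimates (median log2 fold change -0.04). Hdac9 and Hdac7, both class IIa histone deacetylases, had an unadjusted limma p under 0.05 with lower values, 2 of 20 against 2.95% of all genes, and 0 were higher or past 1.5-fold. Class IIa enzymes bind MEF2 and repress its targets until calcium-dependent kinases send them out of the nucleus.

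Hdac9 read 13.2, 14.6, 14.9 and 13.8 in flox mice and 12.2, 10.8, 8.71 and 12.4 in MI4KO mice. The groups did not overlap, as for 1.7% of all genes in that direction. Its log2 fold change was -0.34 ± 0.11, with an interval of -0.59 to -0.10 (limma p = 0.00988, adjusted p = 1.0; exact permutation p = 0.0286). Hdac7, named after its values were seen, read 19.7, 22.6, 22.7 and 23.2 in flox and 15.8, 18.7, 18.7 and 19.8 in MI4KO mice (log2 fold change -0.26 ± 0.09, limma p = 0.0151, exact permutation p = 0.0571). MI4KO mouse 4 and flox mouse 1 met at the edge of the ranges. The other 2 enzymes of the class, Hdac4 (-0.15 ± 0.12) and Hdac5 (-0.04 ± 0.08), were named after their values were seen and overlapped between groups. Hdac7 is also an endothelial gene, and the endothelial sums given above were lowest in MI4KO mouse 1, as Hdac7 was. Its part in the result was not tested. The highest estimate of the list was that of the calcineurin subunit Ppp3cb, at 0.09 ± 0.09.

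**Figure D4:**
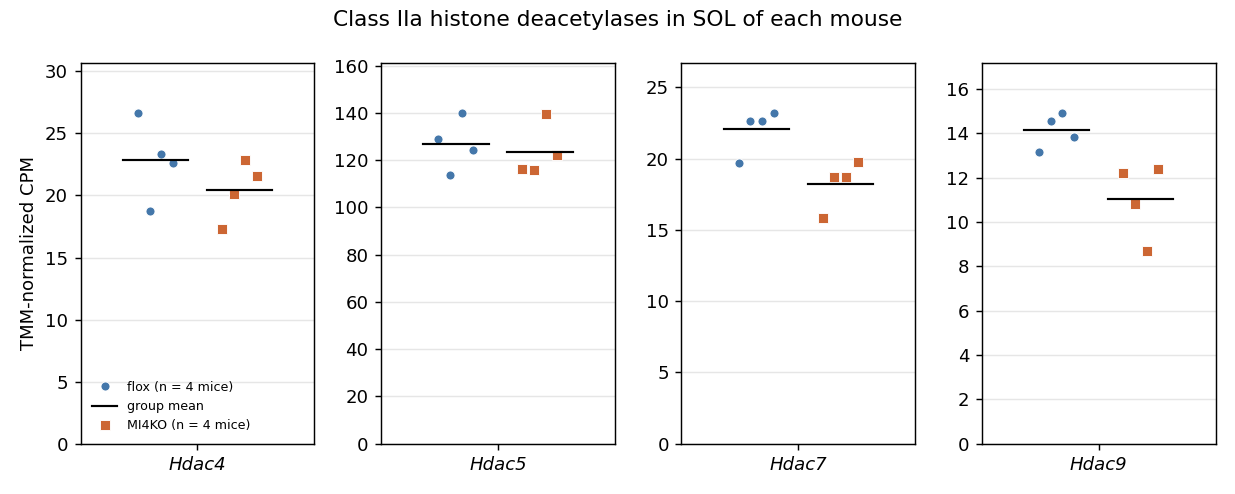
Normalized CPM of the 4 class IIa histone deacetylases in each mouse (circles flox, squares MI4KO, 4 mice each, bars at the group means, each panel with its own axis from 0). Hdac9 lies between 13.2 and 14.9 in flox and between 8.71 and 12.4 in MI4KO mice with no overlap, while Hdac4 and Hdac5 overlap.

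Six4 (chr12:73099609-73113456) read 26.9, 23.8, 22.6 and 21.3 in flox mice and 23.5, 22.4, 19.3 and 24.6 in MI4KO mice. All MI4KO mice but 1 lay within the flox range, with MI4KO mouse 3 below it. An estimate of -0.07 ± 0.10 (log2 fold change) resulted, with an interval of -0.29 to 0.14 (limma p = 0.472, exact permutation p = 0.486), and 0.06 without flox mouse 1 and MI4KO mouse 3. Of 11 genes of this family and of its EYA and DACH cofactors, 8 were tested and 0 had an unadjusted limma p under 0.05. The lowest was the corepressor Dach1 (-0.28 ± 0.15, limma p = 0.0868, exact permutation p = 0.171) and the highest the coactivator Eya1 (0.17 ± 0.13, limma p = 0.206, exact permutation p = 0.343).

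MI4KO mouse 3 held the lowest value of the 8 mice for 5 of the 9 members, Myod1, Myog, Myf6, Mef2c and Six4, and the highest for none. Among all genes tested, 13.3% had their lowest and 30.9% their highest value in that mouse. Relative to the mean of the other 7 mice, it was lower by a log2 difference of -0.44 for Myf6, -0.39 for Myod1 and for Myog, -0.32 for Pax7, -0.27 for Six4, -0.20 for Mef2c and -0.18 for Myf5. Mef2a (0.14) and Mef2d (0.08) stood higher there. MI4KO mouse 1 gave another pattern, with the highest Myod1, Mef2a and Mef2c and the lowest Pax7.

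**Figure D5:**
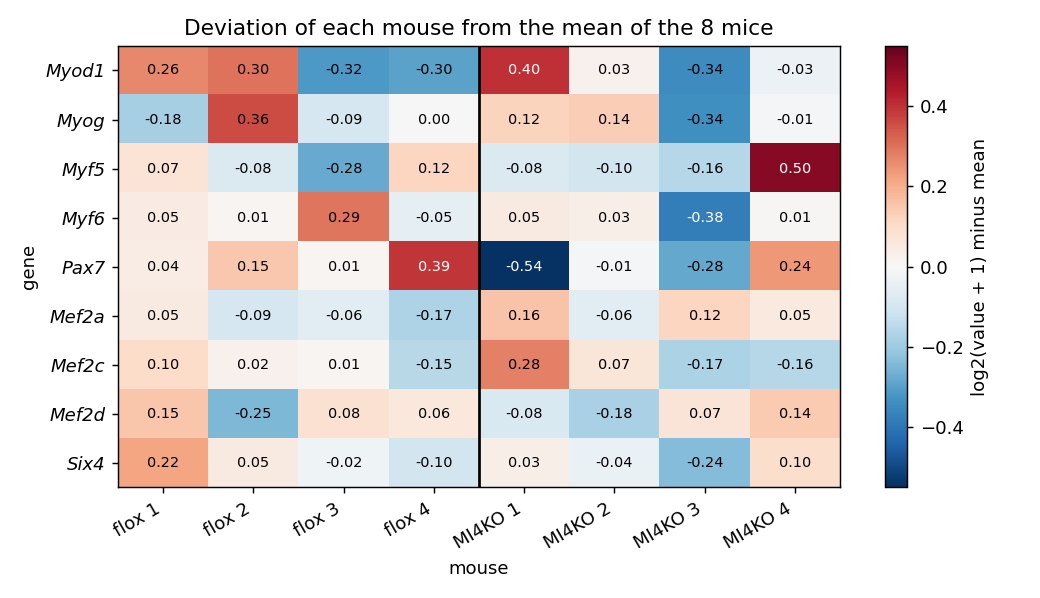
Deviation of each mouse from the mean of the 8 mice, in log2(value + 1), for the 9 factors in rows and the mice in columns, with the line between flox and MI4KO mice (red higher, blue lower). The column of MI4KO mouse 3 is negative for 7 of 9 genes, and the lowest field of all is Pax7 in MI4KO mouse 1, at -0.54.

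Genes of one family or pathway were also compared across the 8 mice, for 5 pairs. Myod1 and Myog had Pearson's r = 0.58 (exact permutation p = 0.135) and Spearman's rho = 0.64 (exact permutation p = 0.0962). Without the 2 mice farthest from the median of Myod1 r was 0.37, and it ran from 0.41 to 0.80 with single mice left out and stood at 0.70 with library size scaling. Myf5 and Pax7 had r = 0.49 (exact permutation p = 0.216) and rho = 0.74 (exact permutation p = 0.0458, adjusted 0.229). Leaving out the 2 farthest mice gave r = 0.65, and deviations from the group means gave 0.72.

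Myog and Myf6 had r = 0.39 and rho = 0.14 (exact permutation p = 0.331 and 0.752), and r turned to -0.32 without the 2 farthest mice. Mef2a and Mef2d had r = 0.24 and rho = 0.26 (exact permutation p = 0.554 and 0.536), with 0.72 without the 2 farthest. Mef2c and Mef2d had r = -0.42 and rho = -0.24 (exact permutation p = 0.313 and 0.582), with -0.35 without them. The smallest adjusted p of r over the 5 pairs was 0.414, so no pair passed the test, and with 8 mice this does not show that the pairs were unrelated.

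Myod1 had the largest SD of log2(value + 1) of the members over the 8 mice (0.2999), just above Pax7 (0.295), while as a ratio of highest to lowest mouse Pax7 (2.70) and Myf5 (2.32) were wider than Myod1 (1.91). The 3 tested genes whose pattern lay closest to it were the predicted gene Gm13157, the galactosyltransferase gene B3galt1 and 4930429F24Rik, with a mean absolute difference of centred log2 values of 0.07, 0.09 and 0.11 over 8 mice. This is a description of likeness in these libraries, chosen out of all genes tested.

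Other regulators and targets of the factors were taken as groups. Of 16 further myogenic regulators, 13 were tested, 9 with lower and 4 with higher estimates, beside 56.2% of all genes with a lower one. An unadjusted limma p under 0.05 was reached by 1, with lower values, against 2.95% of all genes. That gene was Prdm16, a zinc finger factor known for the choice between muscle and brown fat lineages. It read 5.86, 5.48, 6.08 and 6.70 in flox and 4.64, 5.17, 4.52 and 4.65 in MI4KO mice, without overlap (log2 fold change -0.29 ± 0.11, limma p = 0.0177, adjusted p = 1.0, exact permutation p = 0.0286). Among all genes, 1.7% were lower in MI4KO mice without overlap. The unadjusted p of Prdm16 exceeded 0.05 in DESeq2, without flox mouse 4 and without flox mouse 1 and MI4KO mouse 3. The highest was Tead1, the factor that binds MCAT sites in muscle genes, at 0.11 ± 0.10.

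Differentiation and fusion genes, which the bHLH and MEF2 factors switch on, gave 20 tested of 24, with 14 lower and 6 higher estimates and 0 with an unadjusted limma p under 0.05. The embryonic myosin Myh3, a gene of regenerating and developing fibers, read 36.1, 31.7, 50.9 and 52.2 in flox and 49.8, 36.3, 9.31 and 23.4 in MI4KO mice. Its log2 fold change was -0.70 ± 0.37 (limma p = 0.0834, exact permutation p = 0.257), with the groups overlapping. It passed both limits with the range of mouse numbers as covariate (-0.88) and without MI4KO mouse 1 (-1.02), and was -0.25 without MI4KO mouse 3. The cell cycle inhibitor Cdkn1a read 49.9 in MI4KO mouse 3 and 12.5 to 16.2 in the other 7 mice, and its estimate of 0.35 ± 0.32 turned to -0.09 without that mouse.

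Denervation-responsive genes, in which Myog is known to take part, gave 8 tested of 10. At an unadjusted limma p under 0.05, 1 was lower, beside 2.95% of all genes, and it was Hdac9 again. Myh3, counted above, was the lowest of this list too and Runx1 the highest, at 0.21 ± 0.18. The acetylcholine receptor subunit Chrna1, a target of Myog in denervated muscle and named for its role, had an estimate of -0.03 ± 0.08.

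Fiber type genes, on which MEF2 acts, were taken as a slow and a fast list. All 8 slow fiber genes had lower estimates (median log2 fold change -0.08), beside 56.2% of all genes, and 0 had an unadjusted limma p under 0.05. The lowest was Myh7b at -0.22 ± 0.11 (limma p = 0.0582, exact permutation p = 0.171) and the one nearest 0 was Tnnc1 at -0.03 ± 0.11. Myh7, the slow myosin of SOL and named for its role, averaged 13005 in flox and 11518 in MI4KO mice (-0.17 ± 0.12, limma p = 0.174, exact permutation p = 0.114). Of 10 fast fiber genes 5 were lower and 5 higher.

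Myl1, the fast light chain whose locus carries the Cre gene, ranged over 3151 to 3664 in the control mice and over 2203 to 2846 in the knockout mice, with no overlap (log2 fold change -0.41 ± 0.10, limma p = 0.00135, adjusted p = 1.0, exact permutation p = 0.0286). Values lower in MI4KO mice without overlap were found for 1.7% of all genes. The insertion of Cre at Myl1 and the deletion of Irf4 go together in these mice and cannot be told apart. Myh4, the fastest myosin, ran from 34.5 to 2496 within the flox mice alone, and its estimate of 0.57 ± 1.42 changed sign under both count models (-0.37 in edgeR, -0.38 in DESeq2).

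The other cell types in the muscle were followed through their markers. Fibroblast and mural cell markers had lower estimates in 5 of 5 each, beside 56.2% of all genes. An unadjusted limma p under 0.05 was found for the pericyte proteoglycan Cspg4 alone (-0.45 ± 0.19, p = 0.0361, exact permutation p = 0.0857), named after its values were seen. Schwann cell markers were lower in 3 of 5 and macrophage markers higher in 4 of 4, with 0 at that p. The complement factor gene Cfd (-0.65 ± 0.28, limma p = 0.0394, exact permutation p = 0.171), of 5 adipocyte markers, and the matrix gene Fmod (-0.72 ± 0.29, limma p = 0.0302, exact permutation p = 0.171), of 2 tested tendon markers, passed 1.5-fold as well. Cfd kept that call in 4 and Fmod in 10 of 18 alternatives. None of these values bears on a member directly, and their part in the members' values was not tested.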

How the data were processed

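SOL mRNA from 4 MI4KO and 4 flox mice was sequenced as single reads of 50 bases. The authors demultiplexed with bcl2fastq 2.17, mapped reads to UCSC transcripts (mm10) with Bowtie2 2.1.0, estimated expression with RSEM 1.2.15 and deposited TMM-normalized signal values (CPM). The library kit was a stranded one, and the strand setting of the counting is not given in the sources used here. The deposited fold change (a signed score), p-value and FDR columns hold the authors' edgeR comparison and were not used.

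Every value was a whole multiple of the value of 1 read, within a tolerance of 0.001 of its read number, which gave reads per mouse. At high read numbers any value meets this tolerance, so the check bears on low ones only. The test was limma 3.58.1 in R 4.3.3 with a mean-variance trend on log2(value + 1), for genes of at least 1 in at least 4 of 8 mice, with Benjamini-Hochberg adjustment over all of them. Changes counted from 1.5-fold with p under 0.05, the limits the authors used with edgeR. Here they were set on log2(value + 1), which understates fold changes of scarce genes. The paper reports more SOL genes at its limits than any setting here gave, so the counts are not comparable. As alternatives, the recovered reads went into edgeR 4.0.16 and into DESeq2 1.42.0. Single genes were also tested by exact two-sided permutation of group means. The fit was tested on simulated data. Gene positions and exon lengths came from GENCODE M21 and promoters from RefSeq, both on GRCm38.

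Members and lists were chosen with earlier results of these data known. Named beside the members were Irf4, from each list the genes past the limits or else those with the highest and the lowest fold change, and the 3 genes most like the member with the largest SD of log2(value + 1). Mice are numbered in accession order, and each is a separate animal.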

Additional observations from a re-analysis of the deposited data

Results flagged for a closer look

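Of 80 groups of 4 mice examined, 9 held 1 mouse whose gap to its nearest neighbour exceeded the 95% critical value of Dixon's test, and chance alone marks about 1 in 20 such groups of genes picked without regard to their values. Apart from the 9 factors, most genes examined were named for an extreme fold change or after their values were seen, so that rate does not apply to them. Among the 9 factors this was so for Myf5 in MI4KO mouse 4 (2.78 against 1.40 to 1.52 in the other 3) and for Myf6 in MI4KO mouse 3 (47.3 against 62.2 to 64.0). The same mouse stood apart in Dach1 (2.73 against 3.81 to 3.88), Sdc4 (119.2 against 39.5 to 47.1) and Cdkn1a (49.9 against 12.5 to 15.2). The others were Cdkn1a in flox mouse 2 (16.2 against 14.4 to 14.5), Hdac7 in flox mouse 1 (19.7 against 22.6 to 23.2) and Cdh5 in flox mouse 1 (112.7 against 134.2 to 138.8) and in MI4KO mouse 1 (82.0 against 113.5 to 120.7).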

How the results depend on the processing

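No member passed 1.5-fold with p under 0.05 in any of 18 alternatives. Myf6, Pax7 and Mef2a kept their sign in all of them and 6 members changed it in at least 1. One member had an unadjusted p under 0.05 with median-of-ratios scaling (1), library size scaling (1), edgeR (1) and DESeq2 (1), Mef2a each time, and 0 to 1 with single mice left out (Mef2a without MI4KO mouse 2, Pax7 without MI4KO mouse 4). The cause was not tested.

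Genes past the limits numbered 26, against 41 with a pseudocount of 0.5, 13 with robust estimation, 65 in edgeR, 51 in DESeq2 and 18 to 57 with single mice left out (57 without MI4KO mouse 4). Genes at an adjusted p under 0.05 numbered 0 to 1 with single mice left out. Genes at an unadjusted p under 0.05 numbered 399, against 634 with no filter, 248 in DESeq2, 629 without flox mouse 1 and MI4KO mouse 3, and 258 to 614 with single mice left out (258 without flox mouse 3, 614 without MI4KO mouse 4).

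Signs turned with the range of mouse numbers as covariate for Myod1 (-0.073), Mef2c (-0.055) and B3galt1 (-0.072). They turned with library size scaling for Mef2d (0.021), Tnnc1 (0.015), Hdac5 (0.0051) and Chrna1 (0.018), where the median of all genes moved from -0.015 to 0.026, about as far as these genes did. They turned without flox mouse 1 and MI4KO mouse 3 for Six4 (0.055), Msc (-0.044) and Cdkn1a (-0.11), and for Myh4 in edgeR (-0.37) and DESeq2 (-0.38).

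With single mice left out, log2 fold changes that changed sign ran from -0.11 to 0.14 for Myod1, -0.11 to 0.070 for Myog, -0.071 to 0.15 for Myf5, -0.084 to 0.067 for Mef2c, -0.11 to 0.032 for Mef2d, -0.043 to 0.19 for Msc, -0.037 to 0.49 for Sdc4, -0.095 to 0.54 for Cdkn1a, -0.11 to 0.064 for Tnnc1, -0.41 to 1.63 for Myh4, -0.099 to 0.010 for Hdac5, -0.018 to 0.057 for Tcf12, -0.091 to 0.0045 for Chrna1, -0.021 to 0.21 for Gm13157, -0.082 to 0.14 for B3galt1 and -0.018 to 0.19 for 4930429F24Rik. The r of Myod1 and Myog ran from 0.41 to 0.80 (0.80 without flox mouse 1, past 0.05 in the exact permutation test) and that of Myog and Myf6 from -0.34 to 0.66 (-0.34 without MI4KO mouse 3).

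No paired analysis was possible because each mouse has its own number in the labels, and the replicate numbers only follow accession order. Counting error limits Pax7, Myf5 and Irf4, at 4 to 46 reads per mouse, and the floor of 3 reads covers counting error only.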
